A study of Sus scrofa with 30 samples.

Results

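The genes described here are those of arginine and polyamine metabolism in the pig embryo. The symbols listed for their place in the pathway were ODC1, AZIN1, AZIN2, OAZ1, AMD1, SRM, SMS, SAT1, ARG2 and AGMAT. They were looked up by NCBI gene ID in the count table of all embryos. Of the 10 genes, 8 were in that table, which held 13103 genes. AZIN2 and AGMAT were not analysed here.

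RNA was sequenced from 30 single embryos of Days 8, 10 and 12 of pregnancy (5 of each sex per day), the days over which the pig conceptus grows from a spherical blastocyst into a filament. The embryos were flushed from the uteri of German Landrace × Pietrain gilts that had been inseminated with semen of a single Pietrain boar, with 4 gilts per day. All gilts had been synchronised with Altrenogest and given gonadotropins (PMSG and human chorionic gonadotropin) before insemination, so this treatment is shared by all groups. Whole embryos were used, so each library mixed trophectoderm, which forms the placenta, with epiblast and hypoblast cells. Sex had been typed on DNA of each embryo, and the gilt that carried an embryo was not given. With 5 embryos per group from 4 gilts, each group held littermates, and the spread between them may be smaller than that between litters.

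Polyamines are small positively charged molecules that bind nucleic acids and are needed for growth and translation. Arginase splits arginine into urea and ornithine, ornithine decarboxylase turns ornithine into putrescine, and aminopropyl groups derived from S-adenosylmethionine are then added by spermidine synthase and by spermine synthase. The route is kept in check by antizyme, a protein that binds ornithine decarboxylase and sends it to the proteasome, and by acetylation, which marks polyamines for oxidation or export. In pig pregnancy, arginine and polyamines are known for their part in the growth of the trophectoderm.

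In the RefSeq annotation of the pig genome assembly used for the files (Sscrofa11.1), ODC1 lay on chromosome 3 (126087013 to 126095644), AZIN1 on chromosome 4 (34221368 to 34257261), OAZ1 on chromosome 2 (76293142 to 76296626) and AMD1 on chromosome 1 (76839448 to 76863745). SRM lay on chromosome 6 (71246895 to 71253534) and ARG2 on chromosome 7 (91343987 to 91385911). SMS (18118332 to 18169396) and SAT1 (19908037 to 19910553) lay on the X chromosome. SRM overlapped the annotated long noncoding RNA LOC110261096, and ARG2 overlapped the annotated pseudogene LOC110261694. Whether strand was used in the counting was not given in the sources used here, so reads of these overlapping genes may not be separated.

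Library totals ran from 6068212 to 34002508 counts, and the smallest belonged to the Day 12 female embryo d12_f_245. Levels are given as CPM, counts relative to library totals adjusted by edgeR's trimmed mean of M values, and are compared between embryos and not between genes, since transcript lengths were not used. Defining markers of trophectoderm (8 of 8), epiblast (5 of 5) and hypoblast (5 of 5) were in the table. Summed trophectoderm markers had medians of 23818 CPM on Day 8, 42424 CPM on Day 10 and 13333 CPM on Day 12. This sum was mostly KRT8 and KRT18, and the trophectoderm factors GATA2 (460, 327 and 425 CPM) and TFAP2A (75.8, 50.6 and 104.1 CPM) had their lowest mean on Day 10, as did GATA3 (138, 121.3 and 285.0 CPM). Epiblast markers summed to medians of 163, 132 and 45.2 CPM, most of it LIN28A, and the epiblast factor SOX2 did not exceed 0.0387 CPM in any Day 12 embryo. Hypoblast markers summed to medians of 285.8, 165 and 401 CPM, where the mean of PDGFRA went from 83.4 to 332 CPM between Days 8 and 12 and that of GATA6 from 142 to 44.5 CPM. Of markers of maternal blood, 2 of 6 were in the table and summed to at most 10.6 CPM in an embryo, and of uterine epithelium 3 of 5, which summed to between 4.80 and 27.8 CPM on Day 12 and to at most 7.07 CPM before. The part of these shifts in the results below was not tested, and in whole embryos fewer cells of a type and less RNA per cell cannot be told apart.

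Differences between days were tested with edgeR's quasi-likelihood test over all 13103 genes and 10 embryos a day. A gene was counted as differentially expressed (DEG) at a false discovery rate (FDR, the adjusted p) under 0.001 with a log2 fold change beyond 1, and genes that passed the FDR with a smaller change were counted separately.

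ODC1, AZIN1, AMD1 and ARG2, which serve the supply of ornithine, putrescine and aminopropyl groups, fell between Day 8 and Day 12. SAT1, which serves breakdown, rose, and SRM had a trough on Day 10. SMS was higher on Day 12 than on Day 8 (log2 fold change 0.39) without reaching the fold threshold, and OAZ1 passed in no comparison of days. The other breakdown genes examined below, PAOX, SMOX and SAT2, took courses that differed from each other. From Day 8 to Day 10, 1 of the 8 genes was a DEG in the lower direction, SRM, and 1 in the higher direction, SAT1. These 2 of 8 stand beside a background of 14.1% of all genes. From Day 10 to Day 12, SRM was higher again and ARG2 was lower, again 2 of 8 beside a background of 23.3%. Between Day 8 and Day 12, 5 of the 8 genes were DEG (4 lower and 1 higher), beside a background of 32.5% (10.4% lower and 22.0% higher). The median log2 fold change of the 8 genes was -0.41 from Day 8 to Day 10, -0.18 from Day 10 to Day 12 and -0.70 from Day 8 to Day 12, while the medians of all genes were 0.03, 0.04 and 0.09.

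**Figure D1:**
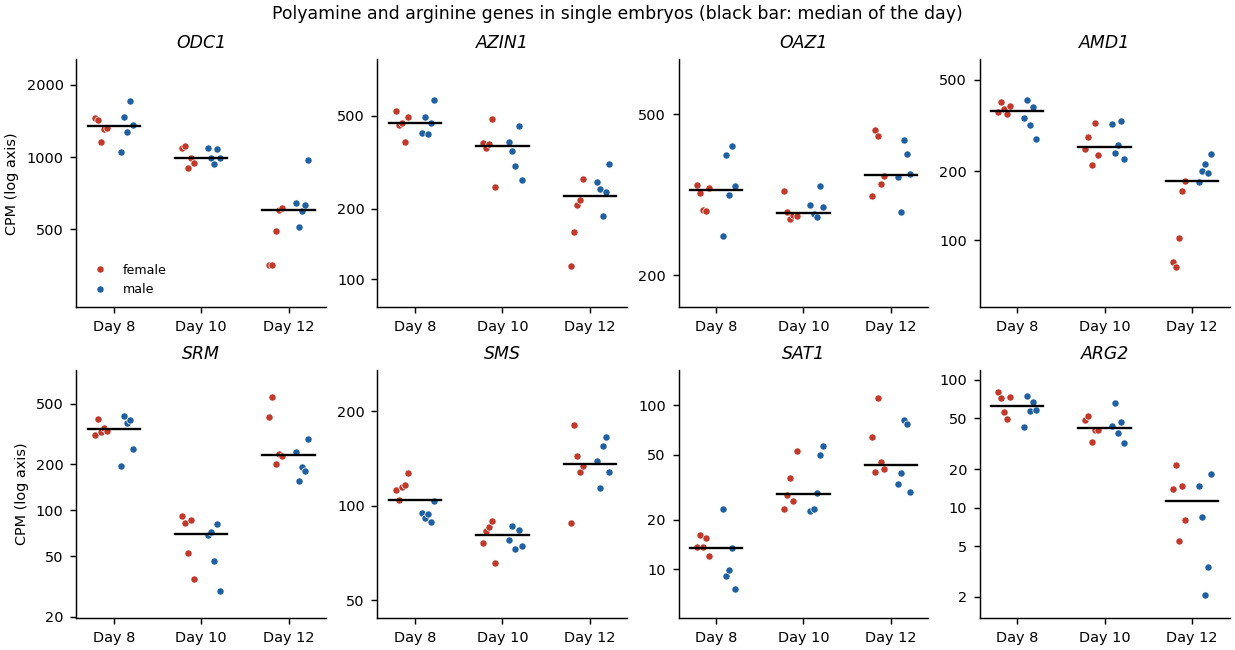
Level of each of the 8 genes in CPM (vertical log axis, own scale per panel) in every embryo of Days 8, 10 and 12, with female embryos in red, male embryos in blue and the median of the day as a black bar. SRM is lowest in the 10 embryos of Day 10, ARG2 is lowest in the 10 embryos of Day 12, and the Day 12 values of ODC1, AZIN1 and AMD1 lie below those of Day 8.

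ODC1 encodes ornithine decarboxylase, the enzyme that forms putrescine. Its level ran from 1053 CPM over a median of 1345 to 1704 CPM on Day 8, from 900 over 992 to 1108 CPM on Day 10, and from 356 over 600 to 970 CPM on Day 12. The daily means were 1352 ± 179, 1012 ± 74.9 and 578 ± 174 CPM (SD, n = 10). All Day 12 embryos were below all Day 8 embryos, and of the Day 12 embryos only the male embryo d12_m_307 reached into the range of Day 10. The other 9 embryos of Day 12 had at most 644 CPM. The log2 fold change was -0.42 (SE 0.12) from Day 8 to Day 10, which did not pass the test (adjusted p = 0.0045), and -0.81 (SE 0.12, adjusted p = 1.33e-06) from Day 10 to Day 12. Whether the first step passed depended on the fit. It did with edgeR's robust generalised linear model (adjusted p = 2.59e-04) and when only those 2 days were fitted (adjusted p = 2.06e-05). Over both steps ODC1 fell by 1.23 on the log2 scale (SE 0.12, adjusted p = 3.36e-10).

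AZIN1 encodes antizyme inhibitor, a relative of ornithine decarboxylase without its activity that takes up antizyme and so spares the enzyme. It took a course like that of ODC1, with a lowest, median and highest level of 388, 467 and 582 CPM on Day 8, 248, 370 and 483 CPM on Day 10 and 114, 227 and 310 CPM on Day 12. The ranges of Day 8 and Day 12 did not overlap, while those of neighbouring days did. AZIN1 did not pass the test from Day 8 to Day 10 (log2 fold change -0.38, adjusted p = 0.0154), passed the FDR from Day 10 to Day 12 with a log2 fold change of -0.71 (SE 0.13, adjusted p = 3.26e-05) and was a DEG between Day 8 and Day 12 (-1.10, SE 0.13, adjusted p = 1.76e-08). Within Day 10 the female embryo d10_f_454 and the male embryo d10_m_453 had the lowest levels, 248 and 266 CPM, while the other 8 embryos had between 305 and 483 CPM.

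OAZ1, which encodes antizyme, varied least among the 8 genes. Its lowest, median and highest levels were 250, 324 and 417 CPM on Day 8, 275.8, 285 and 332 CPM on Day 10 and 287, 354 and 457 CPM on Day 12. The ranges of all days overlapped. No comparison of days passed the test for OAZ1. The log2 fold change was -0.16 (SE 0.09, adjusted p = 0.122) from Day 8 to Day 10, 0.34 (SE 0.09, adjusted p = 0.00106, just beyond the threshold) from Day 10 to Day 12 and 0.19 (SE 0.09, adjusted p = 0.0537) between Day 8 and Day 12. Antizyme protein is made through a ribosomal frameshift, a step that these RNA levels do not measure.

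AMD1 encodes S-adenosylmethionine decarboxylase, the source of the aminopropyl groups. Its lowest, median and highest levels were 277, 368 and 410 CPM on Day 8, 212, 255 and 332.7 CPM on Day 10 and 76.7, 181 and 239 CPM on Day 12. As for ODC1 and AZIN1, Day 12 lay wholly below Day 8. The log2 fold change from Day 8 to Day 10 was -0.42 (SE 0.16, adjusted p = 0.0229), which did not pass the test. It was -0.71 (SE 0.16, adjusted p = 2.60e-04) from Day 10 to Day 12, which passed the FDR, and -1.14 (SE 0.16, adjusted p = 1.93e-07) between Day 8 and Day 12. With only the 2 days of a step fitted, the first step passed the FDR (adjusted p = 2.43e-04) and the second did not (adjusted p = 0.00120). In male embryos alone, between Day 8 and Day 12, AMD1 (-0.75) and AZIN1 (-0.95) passed the FDR without reaching the fold threshold.

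SRM encodes spermidine synthase, which joins an aminopropyl group to putrescine. It was the gene with the clearest Day 10 trough. Its lowest, median and highest levels were 194, 339 and 414 CPM on Day 8, 29.5, 70.2 and 91.7 CPM on Day 10 and 156, 231 and 556 CPM on Day 12. Every Day 10 embryo was below every embryo of Day 8 and of Day 12, an order that 79 of the 13103 genes (0.603%) had. SRM fell from a mean of 334 ± 68.7 CPM to 64.6 ± 22.4 CPM (SD, n = 10), a log2 fold change of -2.37 with an SE of 0.22 (adjusted p = 3.60e-10). It then rose to 269 ± 123.6 CPM, a log2 fold change of 2.06 with an SE of 0.22 (adjusted p = 2.02e-09). Day 12 and Day 8 overlapped and did not pass the test (-0.31, SE 0.21, adjusted p = 0.183). On Day 10 the embryos d10_m_453 (29.5 CPM) and d10_f_454 (35.3 CPM) were the lowest, the same embryos that were lowest for AZIN1. On Day 12 the female embryos d12_f_271 (556 CPM) and d12_f_245 (407 CPM) were the highest, and the other 8 embryos had between 156 and 294 CPM.

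SMS, the X-linked gene of spermine synthase, had a shallower course with the direction of SRM at each single step. Unlike SRM, it had a higher mean on Day 12 than on Day 8. Its lowest, median and highest levels were 89.1, 104 and 128 CPM on Day 8, 65.9, 80.5 and 89.4 CPM on Day 10 and 87.8, 136.2 and 181 CPM on Day 12. On Day 12 only the female embryo d12_f_245, the smallest library, lay within the range of Day 10. SMS passed the FDR in all 3 comparisons of the 30 embryos without reaching the fold threshold, with log2 fold changes of -0.40 (SE 0.09, adjusted p = 6.84e-04) from Day 8 to Day 10, 0.79 (SE 0.10, adjusted p = 1.88e-08) from Day 10 to Day 12 and 0.39 (SE 0.09, adjusted p = 4.91e-04) between Day 8 and Day 12. These passes were lost in female embryos alone, with values of -0.53, 0.68 and 0.15 and adjusted p of 0.0113, 0.00128 and 0.383. The first was also lost in male embryos alone (-0.26, adjusted p = 0.0437), and the first and the last were lost without 11 and 7 of the 30 embryos, each left out singly.

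SAT1, also X-linked, encodes the acetyltransferase that marks spermidine and spermine for oxidation or export. It was the one gene of the 8 that was a DEG in the higher direction between Day 8 and Day 12. Its lowest, median and highest levels were 7.54, 13.5 and 23.2 CPM on Day 8, 22.6, 28.7 and 56.4 CPM on Day 10 and 29.7, 43.0 and 110 CPM on Day 12. Day 8 and Day 10 overlapped only through the Day 8 male embryo d08_m_103, and Day 8 and Day 12 did not overlap. SAT1 rose from Day 8 to Day 10 (log2 fold change 1.37, SE 0.24, adjusted p = 1.57e-05). The further difference to Day 12 did not pass the test (0.69, SE 0.23, adjusted p = 0.0124), and over both steps the log2 fold change was 2.06 (SE 0.24, adjusted p = 8.03e-09). The Day 10 embryos d10_m_453 (56.4 CPM) and d10_f_454 (52.6 CPM), lowest for SRM, were the highest for SAT1. In female embryos alone and in male embryos alone, the rise to Day 10 had log2 fold changes of 1.22 and 1.52 and did not reach the FDR of 0.001 (adjusted p = 0.00368 and 0.00541).

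ARG2 encodes the mitochondrial arginase, which makes ornithine. It had the widest range of daily means of the 8 genes. Its lowest, median and highest levels were 42.9, 62.7 and 80.0 CPM on Day 8, 32.05, 41.9 and 65.4 CPM on Day 10 and 2.05, 11.3 and 21.5 CPM on Day 12. Every Day 12 embryo was below every embryo of the earlier days. Day 8 and Day 10 overlapped, and the difference between them did not pass the test (log2 fold change -0.52, SE 0.26, adjusted p = 0.0874). ARG2 fell from 44.0 ± 9.84 CPM on Day 10 to 11.06 ± 6.52 CPM on Day 12 (SD, n = 10), a log2 fold change of -1.999 (SE 0.27, adjusted p = 1.61e-07), and by 2.52 on the log2 scale from Day 8 to Day 12 (SE 0.27, adjusted p = 1.58e-09). The lowest Day 12 value rested on 50 counts, in the male embryo d12_m_276.

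From Day 8 to Day 10, 1 of the 8 genes had no overlap between the days (SRM), beside a background of 22.0% of all genes, and the DEG SAT1 overlapped. From Day 10 to Day 12, SRM and ARG2 had no overlap, beside 16.6%. Between Day 8 and Day 12, 5 of 8 did so, beside 31.7%, and these were the DEG ODC1, AZIN1, AMD1, ARG2 and SAT1. Passing the FDR with any fold change were 3 of 8, 6 of 8 and 6 of 8 genes in the 3 comparisons, beside 31.3%, 38.0% and 54.7% of all genes. In male embryos alone 3 of 8 genes passed the FDR from Day 10 to Day 12, beside 2818 of the 13103 genes. With all embryos 4978 of the 13103 had passed. In the male embryos ODC1 (-0.60, adjusted p = 0.00472), AZIN1 (-0.51, adjusted p = 0.0123) and AMD1 (-0.42, adjusted p = 0.0151) no longer passed. When each of the 30 embryos was left out in turn, the number of DEG among the 8 genes stayed at 2, 2 and 5.

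**Figure D2:**
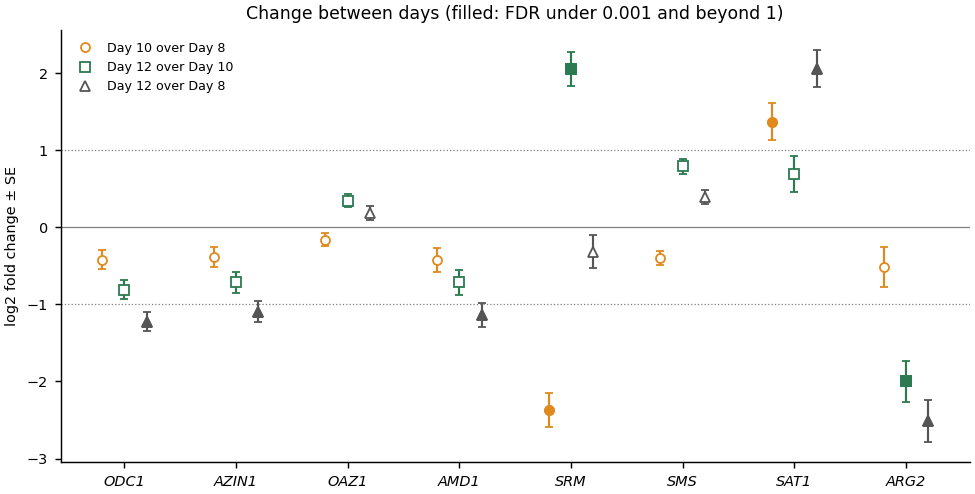
Log2 fold change with its standard error (vertical axis) of the 8 genes between Day 10 and Day 8, Day 12 and Day 10, and Day 12 and Day 8, 10 embryos a day. Filled symbols passed both thresholds for a DEG and dotted lines mark a log2 fold change of 1 in each direction. SRM has the lowest value between Days 8 and 10 (-2.37) and the highest between Days 10 and 12 (2.06).

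Ratios of the counts of a pair of genes in the same embryo do not depend on the scaling between libraries. Their absolute size depends on transcript length and is not interpreted, and no test was made of them. The ratio of ODC1 to its antagonist OAZ1 had a median of 4.09 on Day 8 (range 3.68 to 4.50), 3.37 on Day 10 (3.24 to 3.86) and 1.66 on Day 12 (0.779 to 2.72), so that all Day 12 embryos were below all earlier ones. The ratio of AZIN1 to OAZ1 had medians of 1.46, 1.25 and 0.618. On Day 12 the 3 lowest values of ODC1 to OAZ1 were in female embryos and the highest was in the male embryo d12_m_307.

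The ratio of ODC1, the entry to the pathway, to SAT1, the exit, had medians of 107, 34.7 and 11.0 on Days 8, 10 and 12, with ranges of 45.3 to 179, 17.6 to 48.1 and 4.46 to 32.6. The ratio of SRM to SMS, the 2 synthases, had medians of 2.91, 0.856 and 1.72, and Day 10 (0.396 to 1.21) lay wholly below Day 8 (2.05 to 4.51). In contrast, the ratio of ODC1 to AMD1, the 2 decarboxylases, had medians of 3.61, 3.97 and 3.65 and overlapping ranges on all 3 days.

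**Figure D3:**
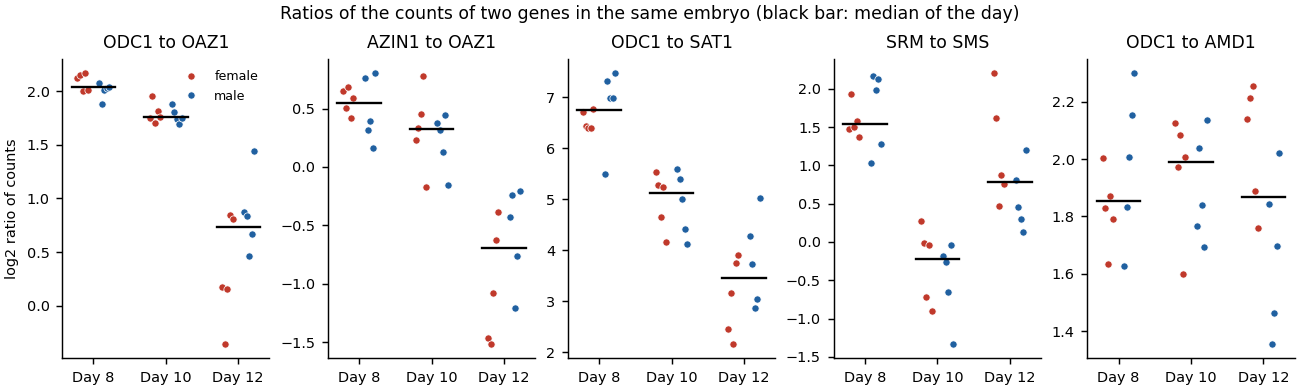
Log2 ratio of the counts of a pair of genes (vertical axis, own scale per panel) in each embryo by day, female in red, male in blue, with the median of the day as a black bar. ODC1 to OAZ1 drops on Day 12, ODC1 to SAT1 is lower on each later day, SRM to SMS is lowest on Day 10 and ODC1 to AMD1 overlaps on all days.

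Female and male embryos were compared within each day, in the table of that day, at an FDR under 0.05. Of the 8 genes, 0 passed on any day. The share of all tested genes that passed was 0.658% on Day 8, 0.223% on Day 10 and 0.123% on Day 12. At an unadjusted p under 0.05, edgeR's quasi-likelihood test gave 1 of the 8 genes on Day 8 (SMS), 0 on Day 10 and 1 on Day 12 (AMD1), beside 4.59%, 2.36% and 22.7% of all genes tested.

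The X-linked genes are taken first, since female embryos carry another X chromosome. On Day 8 the 5 female embryos had SMS levels of 104.7, 112, 115, 116 and 128 CPM, and the 5 male embryos had 89.1, 91.7, 94.5, 94.6 and 104 CPM. Every female embryo was above every male embryo, an order that 1.55% of all genes tested on Day 8 had in either direction. The share among X-linked genes alone was not taken. The log2 fold change of female over male was 0.28 (SE 0.07, adjusted p = 0.160 in edgeR's quasi-likelihood test), and with DESeq2 it passed (adjusted p = 0.0182). The median of the 376 X-linked genes tested on Day 8 was 0.25, and 15.4% of them (58) passed the FDR, beside 0.658% of all genes. With 1 embryo left out, this median ran from 0.24 to 0.28 and the number of X-linked genes called from 31, without d08_f_129, to 57. On Days 10 and 12 the log2 fold change of SMS was 0.01 (SE 0.10) and -0.02 (SE 0.18). The change in the sex difference of SMS from Day 8 to Day 12 was -0.34 (SE 0.18, adjusted p = 0.273).

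SAT1 did not share this order. Its 5 female embryos on Day 8 had between 12.0 and 16.2 CPM and its 5 male embryos between 7.54 and 23.2 CPM. The log2 fold changes of female over male were 0.16 (SE 0.26), -0.14 (SE 0.31) and 0.24 (SE 0.37) on Days 8, 10 and 12, all within their errors.

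On Day 12 AMD1 and ODC1 were lower and SRM and ARG2 were higher in the mean of female embryos, and none passed the test. AMD1 was at 76.7, 80.6, 102.96, 163 and 182 CPM in the 5 female embryos and at 179, 196, 201, 216 and 239 CPM in the 5 male embryos, so that only the highest female embryo, d12_f_299, exceeded the lowest male embryo. The log2 fold change was -0.74 (SE 0.24, adjusted p = 0.198). ODC1 was at 356, 356, 492, 605 and 616 CPM in female embryos and at 513, 595, 634, 644 and 970 CPM in male embryos, with a log2 fold change of -0.44 (SE 0.21, adjusted p = 0.238). SRM lay in the opposite direction (0.66, SE 0.31, adjusted p = 0.233), with the 2 highest values in the female embryos d12_f_271 and d12_f_245. In a single fit of all 30 embryos in 6 groups, which shares the spread over the days, AMD1 (adjusted p = 0.0102) and ODC1 (adjusted p = 0.0370) passed for Day 12, and that fit called 2658 genes in all, against 15 in the fit of Day 12 alone.

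The change in the sex difference between days was tested as an interaction, and 0 of the 8 genes passed in any of the 3 pairs of days. In edgeR's quasi-likelihood test 0% of all genes passed. For AMD1 from Day 8 to Day 12 the interaction was -0.88 (SE 0.26, adjusted p = 0.127). It passed with DESeq2 (adjusted p = 0.0458) and when the Day 12 female embryo d12_f_297 or d12_f_299 was left out (785 and 1712 of all genes then passed), and over the 30 embryos left out in turn its adjusted p ran from 0.0165 to 0.278. At an unadjusted p under 0.05 the interaction gave 0, 1 and 1 of the 8 genes for Day 10 against Day 8, Day 12 against Day 10 and Day 12 against Day 8, beside 0.763%, 18.9% and 21.8% of all genes.

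**Figure D4:**
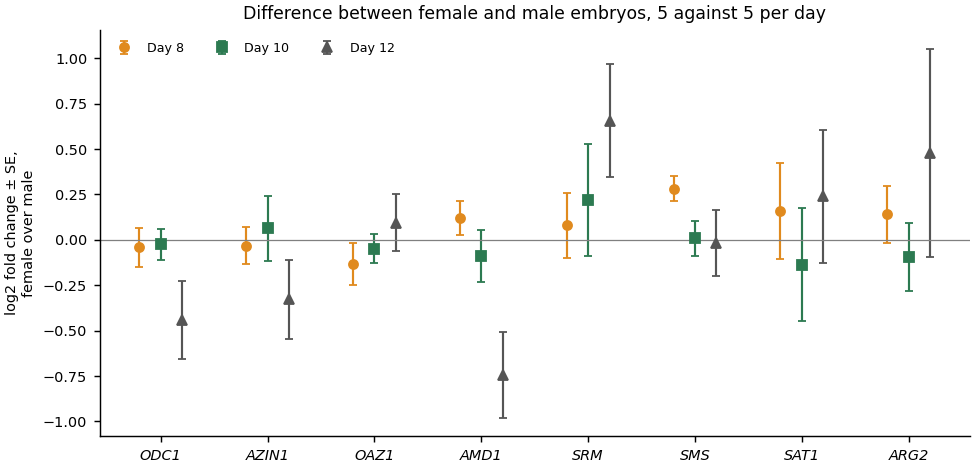
Log2 fold change of female over male embryos with its standard error (vertical axis) for the 8 genes on Days 8, 10 and 12, 5 against 5 embryos a day. SMS on Day 8 (0.28) and AMD1 on Day 12 (-0.74) stand farthest from 0 for their errors, and no value passed the FDR of 0.05.

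The Day 12 embryos differed among themselves along more than 1 gene. The female embryos d12_f_245 and d12_f_271 had the 2 lowest levels of ODC1, AZIN1 and AMD1 and the 2 highest levels of SRM. Embryo d12_f_245 had the lowest SMS level of Day 12 and embryo d12_f_271 the highest, so that they did not agree in all genes. The female embryo d12_f_289 had the highest SAT1 level (110 CPM) and the male embryo d12_m_307 the lowest (29.7 CPM) with the highest ODC1, AZIN1 and AMD1 levels. With embryo d12_f_245 left out, the log2 fold change from Day 10 to Day 12 was -0.75 for ODC1, -0.64 for AMD1 and 1.97 for SRM, close to the values with all embryos.

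Around these genes, a list of 48 genes of arginine, polyamine, creatine, nitric oxide and methionine metabolism and transport was examined, of which 41 were in the table. From Day 8 to Day 10, 5 of the 41 were DEG in the higher direction and 5 in the lower. From Day 10 to Day 12 the numbers were 12 and 3, and between Day 8 and Day 12 they were 15 and 3. The shares of all genes were 9.88% and 4.20%, 14.9% and 8.39%, and 22.0% and 10.4%. The median log2 fold changes of the 41 genes were 0.03, 0.38 and 0.45, beside 0.03, 0.04 and 0.09 of all genes.

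**Figure D5:**
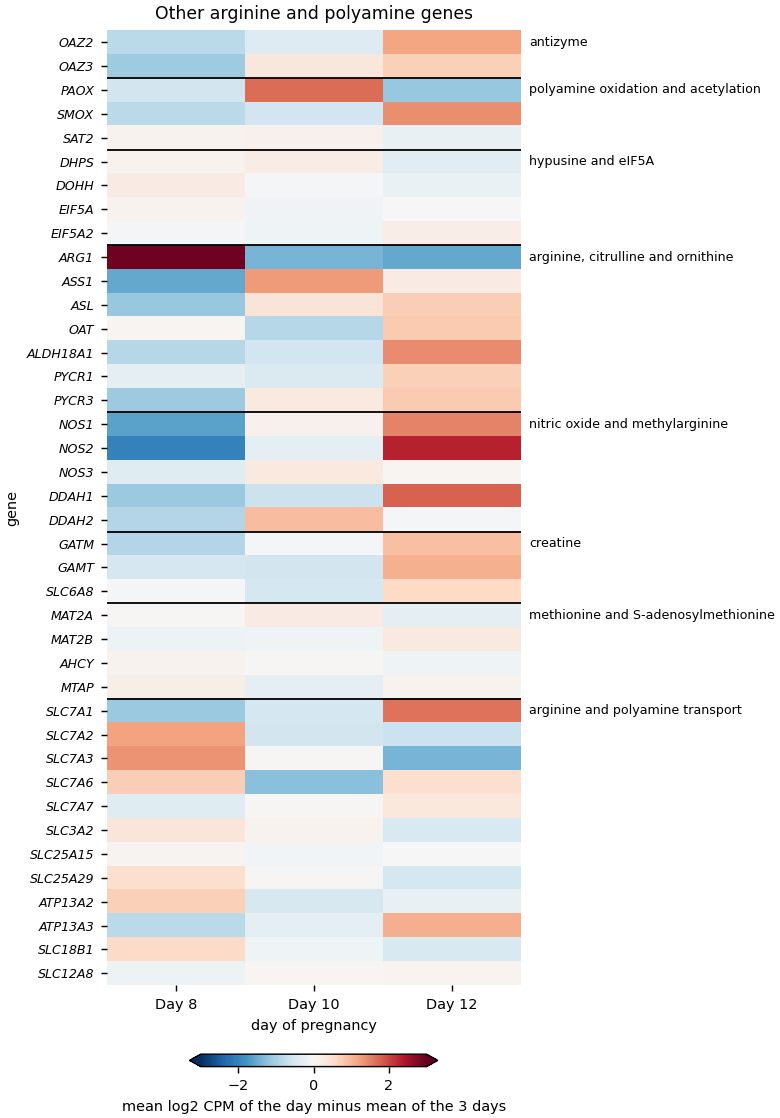
Mean log2 CPM of each day minus the mean of the 3 days (colour, cut at 3 in each direction) for the other genes of arginine and polyamine metabolism that are reported here, by role. PAOX and ASS1 are highest on Day 10, ARG1 is high on Day 8 alone, and the proline and creatine genes ALDH18A1 and GAMT are highest on Day 12.

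Among the controls of the pathway, OAZ2, a second antizyme gene, was higher on Day 12, in contrast to the narrow range of OAZ1. Its daily means were 5.51 ± 1.10, 7.42 ± 1.28 and 22.1 ± 3.76 CPM (SD, n = 10), with a log2 fold change of 1.57 from Day 10 to Day 12 (SE 0.13, adjusted p = 3.49e-12) and separate ranges. OAZ3, known as an antizyme of the testis, was a DEG between Day 8 and Day 12, but 9 of 10 embryos on Day 8 and 4 of 10 on Day 12 had at most 3 counts, and no fold is given.

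The oxidases of polyamine breakdown followed different courses. PAOX encodes the oxidase that acts on acetylated polyamines, the products of SAT1, and had daily means of 5.33 ± 1.02, 25.9 ± 7.44 and 4.02 ± 2.46 CPM. Every Day 10 embryo was above every embryo of Days 8 and 12, an order that 2.43% of all genes had and the reverse of that of SRM. The log2 fold changes were 2.28 (SE 0.25, adjusted p = 5.08e-09) and -2.73 (SE 0.25, adjusted p = 8.41e-11). SMOX, which encodes spermine oxidase, was at 6.33 ± 0.493, 7.81 ± 2.29 and 32.1 ± 12.4 CPM and rose from Day 10 to Day 12 (2.04, SE 0.20, adjusted p = 2.75e-10). SAT2, a relative of SAT1, passed in no comparison of days.

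Spermidine is the source of hypusine, a modified residue of the translation factor eIF5A. None of EIF5A, EIF5A2, DHPS and DOHH was a DEG between any 2 days, and only DHPS, which encodes the first enzyme of the modification, passed the FDR (-0.56 from Day 10 to Day 12, adjusted p = 1.43e-06). EIF5A itself had daily means of 1349 ± 148, 1175 ± 170 and 1289 ± 278 CPM.

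RNA of the enzymes around arginine and ornithine took different courses. ARG1, the cytosolic arginase, had a mean of 15.7 ± 11.4 CPM on Day 8, 0.635 ± 0.338 CPM on Day 10 and 0.572 ± 0.315 CPM on Day 12 (SD, n = 10). It fell from Day 8 to Day 10 (log2 fold change -4.62, SE 0.41, adjusted p = 8.39e-11), a step earlier than ARG2. ASS1 and ASL, which together make arginine from citrulline, both rose from Day 8 to Day 10, ASS1 from 11.0 ± 2.17 to 89.1 ± 48.7 CPM (3.01, SE 0.28, adjusted p = 2.42e-10) and ASL from 3.30 ± 0.647 to 10.1 ± 3.54 CPM (1.62, adjusted p = 1.90e-07). ASS1 was lower again on Day 12, at 40.2 ± 14.2 CPM (-1.15, adjusted p = 3.32e-04).

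Of the genes that link ornithine and glutamate with proline, ALDH18A1, OAT and PYCR1 were higher on Day 12 than on Day 10. ALDH18A1, the first step from glutamate, was at 24.9 ± 6.81, 29.9 ± 6.82 and 125 ± 47.1 CPM and rose from Day 10 to Day 12 (2.06, adjusted p = 1.00e-10). OAT, ornithine aminotransferase (1.76, adjusted p = 3.25e-08), and PYCR1, a last step of proline synthesis (1.29, adjusted p = 3.04e-05), rose in the same interval. OAT had first been lower on Day 10 than on Day 8, with daily means of 44.0 ± 8.57, 23.7 ± 6.87 and 80.0 ± 48.3 CPM. Between Day 8 and Day 12 its log2 fold change was 0.87, short of the fold threshold. PYCR3 rose earlier, from Day 8 to Day 10 (1.39, adjusted p = 5.49e-10).

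Genes of creatine, nitric oxide and methylarginine metabolism were also among the DEG. GAMT, the last enzyme of creatine synthesis (1.81, adjusted p = 2.36e-07), and SLC6A8, the creatine carrier (1.29, adjusted p = 4.72e-06), rose from Day 10 to Day 12. SLC6A8 had daily means of 102 ± 19.1, 73.6 ± 14.2 and 181 ± 85.1 CPM. Its log2 fold change between Day 8 and Day 12 was 0.83, short of the fold threshold. NOS2, the inducible nitric oxide synthase, ran from 0.774 to 35.2 CPM over the Day 12 embryos and from 0 to 0.376 CPM over the Day 8 embryos, where 4 of 10 had at most 3 counts. NOS1 was a DEG between Day 8 and Day 12 (3.07, adjusted p = 2.13e-04) with embryos that overlapped. DDAH2, listed with the genes of methylarginine metabolism, rose from Day 8 to Day 10 (1.88, adjusted p = 2.78e-06). DDAH1 and GATM were called higher on Day 12, DDAH1 against both earlier days and GATM against Day 8, with 8 and 6 of the 10 Day 8 embryos at 3 counts or fewer.

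The carriers of arginine and other cationic amino acids moved in different directions. SLC7A3 fell at each step, from 14.6 ± 2.72 over 5.96 ± 1.46 to 2.19 ± 0.603 CPM (log2 fold changes -1.29 and -1.42, adjusted p = 8.60e-08 and 1.22e-08). SLC7A2 fell from Day 8 to Day 10 (-1.70, adjusted p = 1.17e-04), and SLC7A1 rose from Day 10 to Day 12, from 1.72 ± 1.29 to 7.44 ± 3.78 CPM (2.11, adjusted p = 1.13e-05). SLC7A6 had a Day 10 trough of the kind seen for SRM, with daily means of 63.9 ± 13.7, 15.7 ± 2.64 and 55.3 ± 16.3 CPM and no overlap of Day 10 with the other days (log2 fold changes -2.03 and 1.82, adjusted p = 3.04e-12 and 8.54e-12). Of the polyamine transporters, ATP13A2 fell from Day 8 to Day 10 (-1.23, adjusted p = 7.49e-10) and ATP13A3 rose from Day 10 to Day 12, from 226 ± 82.7 to 608 ± 257 CPM (1.43, adjusted p = 1.45e-06). Between the sexes, 0 of the tested genes of the list passed on any day (37, 36 and 38 genes tested).

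For the 3 of the 8 genes with the widest range of daily means, the genes of most similar course were taken from 11837 genes by the root mean square difference of mean-centred log2 CPM over the 30 embryos. For ARG2 these were LPCAT4 (0.40), SLC9A3R1 (0.45) and MICAL1 (0.52). For SRM they were SOWAHC (0.47), DLX5 (0.51) and RNF43 (0.57), each with a lower mean on Day 10 than on Days 8 and 12, the course for which they were chosen. For SAT1 they were SLC19A1 (0.40), NFATC1 (0.46) and CTSF (0.46). The difference of a gene from its own mean, the value that a flat gene would give, was 1.37 for ARG2, 1.17 for SRM and 0.98 for SAT1.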

How the data were processed

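The authors removed 3 bases from the 5′ end of the 100-base single-end reads, mapped them to the pig genome and deposited raw counts per gene for all embryos and for each day, already filtered on low CPM, in 4 tables with NCBI gene IDs. The aligner, the counting tool and the filter value were not given in the sources used here. Counts of the tables of single days were the same as in the table of all embryos. Groups came from the labels. The 8 genes, the list around them and the marker lists were chosen with earlier results of these data known. The text names all 8 genes, the listed genes called between days and, for the 3 genes of widest range, the 3 most similar genes with a mean of at least 1 CPM. Of the listed genes, 1 is counted but not reported here.

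Counts were scaled by trimmed mean of M values and tested with edgeR 4.0.16 in R 4.3.3 (robust quasi-likelihood fit, 3 day groups for days, 5 against 5 embryos for sexes, 6 groups for interactions) with Benjamini-Hochberg adjustment over the whole table. DESeq2 1.42.0 was an alternative. Ratios used a prior count of 2. The fits were tested on simulated data. Levels at or under 3 counts were taken as the floor, which covers counting error only; 3 counts were 0.434 CPM in the smallest library. No sequences were printed.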

Additional observations from a re-analysis of the deposited data

Results flagged for a closer look

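Within groups of 5 and 10 embryos, 19 of 159 groups of values held an embryo far from the others by Dixon's criterion, a distance that chance alone gives in about 1 of 20 groups. The 8 polyamine genes gave 3 of these in 72 groups. ODC1 in the Day 12 male embryo d12_m_307 stood apart at 970 CPM, with the nearest embryo at 644 CPM, both among the 5 males and among all 10 embryos of that day. OAZ1 in the Day 10 female embryo d10_f_315 was at 324 CPM, and the other 4 females were between 275.8 and 287 CPM.

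Among the listed genes, the smallest library, the Day 12 female embryo d12_f_245, stood apart for SLC7A3 (0.723 CPM), DDAH2 (43.7 CPM), DDAH1 (5.21 CPM) and GAMT (44.4 CPM). The Day 12 male embryo d12_m_276 stood apart for OAT (209 CPM). On Day 10, the male embryo d10_m_453 stood apart for OAZ3 (1.81 CPM) and NOS1 (27.4 CPM), the female embryo d10_f_454 for SLC7A2 (2.68 CPM) and the female embryo d10_f_433 for SLC7A1 (4.77 CPM). On Day 8, the male embryo d08_m_103 stood apart for ATP13A3 (212 CPM), NOS1 (5.62 CPM) and DDAH1 (0.411 CPM), the female embryo d08_f_105 for SLC7A1 (2.02 CPM) and OAZ3 (0.188 CPM), the female embryo d08_f_109 for ASS1 (15.7 CPM) and the male embryo d08_m_121 for OAT (64.4 CPM).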

How the results depend on the processing

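The differences between days kept their direction for all 8 genes under other scalings, filters, tools and the separate fits of each sex, and no left-out embryo changed the 2, 2 and 5 genes called. The number called changed when the sexes were fitted apart, which leaves 5 embryos a day. It was 1 in female and 1 in male embryos from Day 8 to Day 10, where SAT1 was no longer called, 5 in female embryos from Day 10 to Day 12, where AMD1 (-1.19), AZIN1 (-1.01) and ODC1 (-1.13) passed as well, and 3 in male embryos between Day 8 and Day 12, where AMD1 and AZIN1 were no longer called. Of all 13103 genes, those called from Day 8 to Day 10 were 977 in female and 1067 in male embryos, against 1845 in all embryos. From Day 10 to Day 12 they were 2327 in female and 2003 in male embryos, against 3050. Between Day 8 and Day 12 they were 3934 in female and 3048 in male embryos, against 4255. With library totals alone as scaling, the median of all genes from Day 8 to Day 10 was -0.15 instead of 0.03 and 1027 genes were called higher and 811 lower, against 1295 and 550. Of the 8 genes, those that passed the FDR with any fold change numbered from 1 to 5 over these alternatives from Day 8 to Day 10 (3 in the fit reported), from 3 to 7 from Day 10 to Day 12 (6) and from 5 to 6 between Day 8 and Day 12 (6). With library totals alone, AMD1 (-0.52, adjusted p = 0.00716) and AZIN1 (-0.52, adjusted p = 0.00291) did not pass from Day 10 to Day 12, while OAZ1 did (0.53, adjusted p = 7.59e-07). OAZ1 also passed there with DESeq2, with the robust model and with genes of at least 1 CPM.

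Between the sexes, DESeq2 called 1 of the 8 genes on Day 8 (SMS) and 1 interaction of Day 12 against Day 8 (AMD1), and a single fit of 6 groups called 2 on Day 12 (AMD1 and ODC1). Over all genes, Day 8 gave 36 in the fit of 6 groups, 156 with a robust generalised linear model and, with DESeq2, 1.13% of genes tested against 75 (0.658%). Day 10 gave 42 and 53 with the last 2 of these against 26, and Day 12 gave 2658, 101 and 168 with the 3 of them against 15. The fit of 6 groups tested 13103 genes, and the fits of Days 8, 10 and 12 alone tested 11405, 11675 and 12220. Interactions with DESeq2 gave 1 gene for Day 10 against Day 8 and 2.18% of genes for Day 12 against Day 8, against 0. With the robust model the Day 8 sex differences of AZIN1 (0.012) and SRM (-0.017) changed sign. The cause of these changes was not tested.

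Some sex differences near 0 changed sign when an embryo was left out. On Day 8 they ran from -0.076 to 0.052 for AZIN1, from -0.055 to 0.18 for SRM and from -0.12 to 0.045 for ODC1. On Day 10 they ran from -0.032 to 0.068 for SMS, from -0.19 to 0.075 for ARG2, from -0.047 to 0.18 for AZIN1, from -0.37 to 0.086 for SAT1 and from -0.061 to 0.015 for ODC1. On Day 12 they ran from -0.16 to 0.092 for SMS and from -0.083 to 0.47 for SAT1. The interactions of Day 10 against Day 8 ran from -0.011 to 0.22 for AZIN1, from -0.023 to 0.32 for SRM and from -0.064 to 0.11 for ODC1. Those of Day 12 against Day 10 ran from -0.20 to 0.051 for SMS and from -0.013 to 0.56 for SAT1, and that of Day 12 against Day 8 from -0.31 to 0.26 for SAT1. The number of the 8 genes called in the interactions of Day 12 ran from 0 to 1, and that of all genes for Day 12 against Day 8 from 0 to 1712, above 0 without d12_f_297 or d12_f_299. For Day 12 against Day 10 it ran from 0 to 1111, the latter without d12_f_299, where AMD1 passed (adjusted p = 0.0313). All genes called between the sexes ran from 44 to 70 on Day 8, with the count of all embryos over 1.5 times higher than without d08_f_109, d08_f_124, d08_f_129, d08_f_130 or d08_m_133, and from 13 to 23 on Day 10, likewise without d10_f_315, d10_f_336, d10_m_318, d10_m_321, d10_m_333 or d10_m_435.

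No paired analysis was possible because embryo numbers are unique and the gilt of each embryo was not given. Depth limits the genes near the floor of 3 counts (OAZ3, DDAH1, GATM, NOS2 and ARG1), whose fitted fold changes depend on the prior count.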
